A study of Mus musculus with 2 samples.

Results

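The genes described here encode NF-E2 p45 itself, a close relative of it and possible dimer partners. Nfe2 encodes p45, the protein that the study's antibody binds. Nfe2l2 encodes Nrf2, another member of the CNC family of leucine-zipper factors. Mafg and Mafk encode small Maf proteins. The members are the peaks of the p45 list that overlap, by at least 1 base, a given window on mouse build mm9 around each gene. There were 5 such peaks among the 1651 of the list, or 0.303%. Both the genes and the windows were chosen on the same peak list, with its positions and scores already known, so whether a window holds a peak is a description and was given no test.

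The cells were megakaryocytes, the parent cells of platelets, cultured from fetal livers of wild-type C57BL6 mice at embryonic day 13.5. They were grown with thrombopoietin, the growth factor of this lineage, at 50 ng/ml and fixed with formaldehyde on culture day 3. The series has 1 p45 chromatin immunoprecipitation (ChIP-seq) library and 1 input library from such cells, and only the p45 library's peak list was used here. There is no replicate library, so no value below carries an error. A whole-liver culture can hold other blood cells, and a list of peaks has no expression values against which to check the cell type.

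NF-E2 binds DNA as a pair of unlike proteins, p45 and a small Maf. Small Mafs have a DNA-binding leucine zipper but no activation domain of their own, and they also pair with Nrf2 and with the Bach repressors. NF-E2 is known for its need in the release of platelets by megakaryocytes, and Nrf2 for switching on genes against oxidative stress when it escapes its inhibitor Keap1. Both kinds of dimer recognise sites built around a shared core. The series maps peaks of p45, described here in windows around genes for NF-E2 subunits and for Nrf2.

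RefSeq promoter sequences on build GRCm38.p6 show how that core looks near these genes. The table covers 250 bases before to 50 bases after a gene's start. It holds Nfe2l2, Mafg and Mafk, that is 3 of the 4 members, and not Nfe2. The core searched, on both strands, was TGACNNNGC, which is part of the NF-E2 site and of the antioxidant response element. Each of the 3 promoters holds it once. The stretches around it are printed because they show the letters of the shared core at 3 of the genes described. Each is written 5′ to 3′ on the gene's own strand, with the match in capitals.
Nfe2l2: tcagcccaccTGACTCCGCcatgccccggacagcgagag
Mafg: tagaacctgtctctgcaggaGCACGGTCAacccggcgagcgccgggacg
Mafk: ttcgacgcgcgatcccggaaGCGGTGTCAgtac

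The Nfe2l2 stretch lies at chr2:75704875-75704913 (minus strand), the Mafg stretch at chr11:120633741-120633789 (minus strand) and the Mafk stretch at chr5:139791503-139791535 (plus strand), all on GRCm38.p6. These positions cannot be set beside the peak positions, which are on mm9. The match in Nfe2l2 runs from 240 to 232 bases before the start and reads along the gene's strand. That in Mafg runs from 222 to 214 bases before the start, and that in Mafk from 13 to 5 bases before it, and both lie on the opposite strand. Over the whole table, 4071 of 32851 promoters (12.4%) hold the core. The AP-1 core TGAGTCA, which the fuller NF-E2 site contains, occurs in none of the 3 promoters, so no TGACNNNGC match there can overlap one. Of all promoters, 5.2% hold TGAGTCA. Among 9 further genes of the family and its partners (Nfe2l1, Nfe2l3, Bach1, Bach2, Maff, Maf, Mafa, Nrl and Keap1), 7 are in the table with 13 promoters between them. Of these 13, 1 holds TGACNNNGC, in 1 of the 3 promoters of Maff, the remaining small Maf gene, and 0 hold TGAGTCA. A match is only a run of letters. Mafk, whose window held no peak, has the core as do Nfe2l2 and Mafg.

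Peaks of p45 were found in 3 of the 4 windows. The Nfe2 window held 2 peaks, the Nfe2l2 window 2 and the Mafg window 1, and the Mafk window held none. As a background, each chromosome was cut, between its first and last peak, into stretches as long as the window on it. Unlike the windows, these stretches were not chosen for holding a gene, so the 2 are not matched in gene content. At least 1 peak lay in 3.72% of the 1987 stretches of 50 kb on chromosome 15 (Nfe2), in 4.69% of the 2494 of 70 kb on chromosome 2 (Nfe2l2), in 9.21% of the 1476 of 80 kb on chromosome 11 (Mafg) and in 7.53% of the 1475 of 100 kb on chromosome 5 (Mafk). An empty window is thus what most stretches of that length show. Because the windows were picked with the list in view, nothing further was read from these shares.

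**Figure D1:**
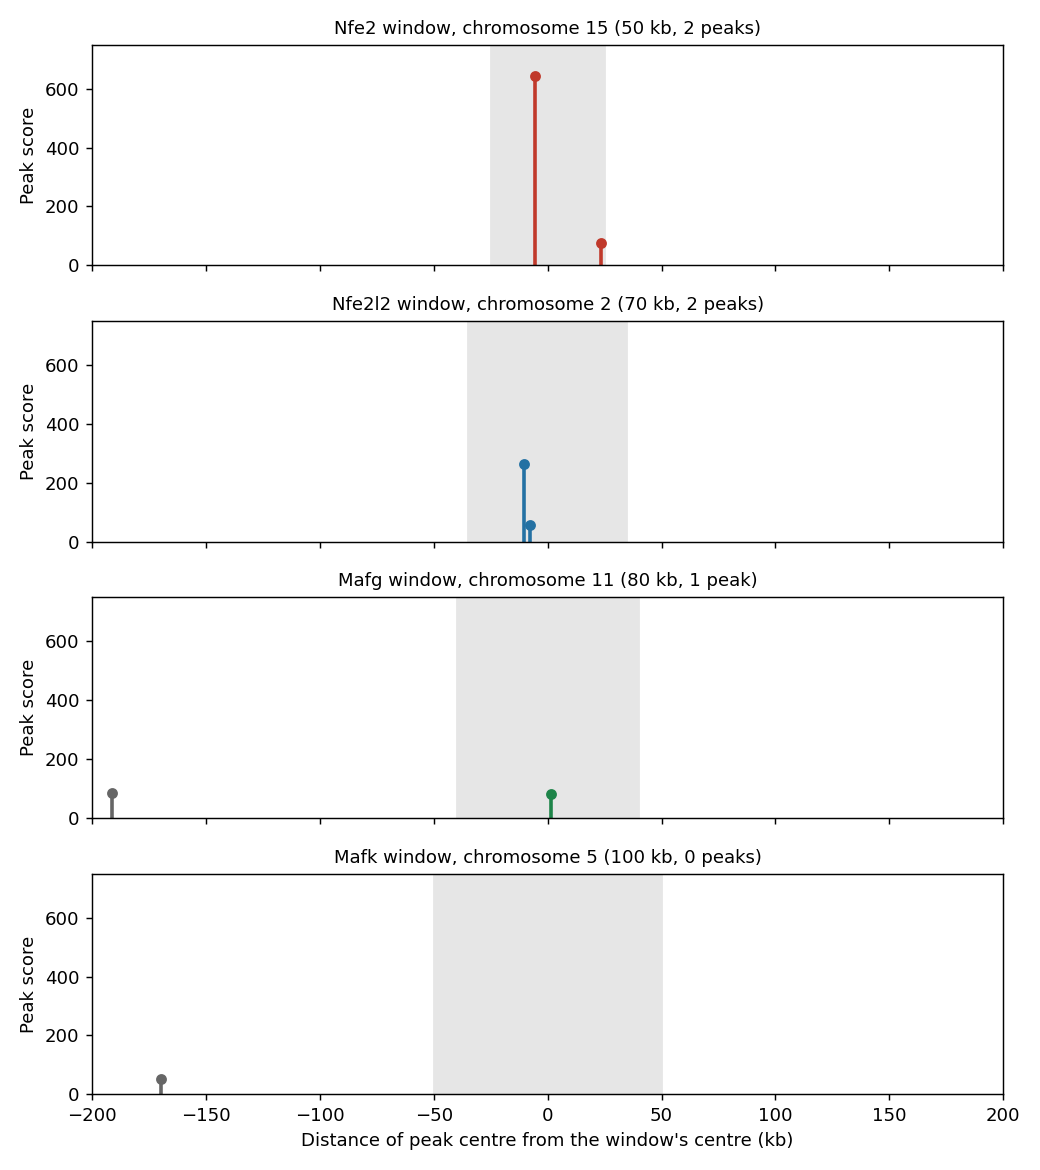
Peaks of p45 around the 4 windows, by distance of the peak's centre from the window's centre (kb, horizontal axis) and by the authors' peak score (vertical axis, from 0); grey bands are the windows, coloured stems are the peaks inside and grey stems those outside. The tallest stem, 644.61, is in the Nfe2 window, and the Mafk band is empty.

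Each peak has 1 score from the authors, used here only to rank peaks within the list, where rank 1 is the highest. Scores ran from 50.04 to 3100 with a median of 76.44. The median peak length was 648 bp. No header or label states the score's scale, and the tag counts behind it were not part of the list. The 5 peaks in the windows had a median score of 81.64 and a median length of 1232 bp, and 3 of them were above the list's median score. They covered 5673 bp together.

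At Nfe2, the gene for p45, the leading peak was among the highest of the whole list. It lies at chr15:103078630-103080135, is 1506 bp long and had a score of 644.61. That placed it at rank 9 of 1651 by score (0.545%) and at rank 14 by length (0.848%). The peaks next to it in rank scored 691.32 above and 613.11 below. It was the first of the 77 peaks of chromosome 15 by score, on a chromosome whose median score was 70.58. Only 2 peaks of the list were both at least as high and at least as long. Both are on chromosome X, at chrX:7536575-7538082 with a score of 1255.61 over 1508 bp and at chrX:7538793-7540609 with 1279.27 over 1817 bp.

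The second peak in the Nfe2 window was ordinary by comparison. It lies at chr15:103108236-103108830, is 595 bp long and had a score of 75.89, just under the list's median. Its rank was 838 by score (50.8%) and 936 by length (56.7%). A gap of 28.1 kb separated it from the leading peak. It was also the last peak of chromosome 15 in the list. The leading peak was 18.6 kb from the start of the window, while this one ended 1.17 kb before the window's end, so a slightly narrower window would have left it out. On the other side, the nearest peak outside lay 526 kb before the window, with a score of 52.67 (rank 1551).

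At Nfe2l2, the gene for Nrf2, the leading peak was high in score and still higher in length. It lies at chr2:75513809-75515389 and had a score of 263.36, which is rank 54 of 1651 (3.27%). At 1581 bp it was the seventh longest of the list (rank 7, 0.424%) and the second longest of the 125 peaks on chromosome 2, where it had rank 7 by score as well. Again only 2 peaks were at least as high and at least as long, the one of 1279.27 on chromosome X and one at chr2:98506144-98507746 with 326.21 over 1603 bp. The scores next to it in rank were 265.11 and 257.82. The list was not filtered here for regions known to give false signal. Whether the 2 higher and longer peaks mark p45 binding was not tested.

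A weaker peak lay beside it. This second peak at Nfe2l2, chr2:75516981-75517739, was 759 bp long with a score of 56.98, rank 1384 by score (83.8%) and rank 557 by length (33.7%). The 2 peaks were 1591 bp apart, with the weaker one at the higher coordinate. Of the 1626 gaps between adjacent peaks on the same chromosome, 14 were shorter. Before this pair the list was sparse. The nearest peak before the window was 4313 kb away (score 76.44), and the nearest after it 814 kb away (score 50.89). Measured from peak to peak, 8.79% of gaps were wider than the one before the pair. For the gap after the pair, 40.9% were wider.

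Within both windows that held 2 peaks, the scores of the pair were far apart. At Nfe2 they differed by 568.72 and at Nfe2l2 by 206.38. Of the 131 adjacent pairs in the list at most 50 kb apart, 3 had a larger difference than the Nfe2 pair and 6 a larger one than the Nfe2l2 pair. In each case the higher score belonged to the peak at the lower coordinate, which was also the longer one. The leading peak's own high score enters each difference, so a high peak beside an ordinary one gives a large value. Pairs with a similarly high peak were not compared separately.

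At Mafg, which encodes the small Maf protein MafG, the single peak had a middling score and a length near the top of the list. It lies at chr11:120490864-120492095, close to the centre of its window (51.8% of the way along). Its score of 81.64 was rank 698 of the list (42.3%) and rank 69 of the 157 peaks on chromosome 11. At 1232 bp it was at rank 36 by length (2.18%) over the list and at rank 7 on chromosome 11. There were 22 other peaks at least as high and as long. Its neighbours outside the window scored much the same as it did: 86.04 at 151 kb before the window and 87.83 at 688 kb after it. These neighbours were shorter, with 642 and 635 bp.

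The Mafk window, 100 kb on chromosome 5, contained 0 peaks. Mafk encodes MafK, a small Maf that pairs with p45 in blood cells. The nearest peaks, at chr5:140099611-140100457 and chr5:140923562-140924572, were 120 kb before and 604 kb after the window. Their scores of 50.16 (rank 1645) and 51.21 (rank 1607) were close to the lowest of the list, 50.04. The stretch without a peak between them was 823 kb wide, against a median of 621 kb over all gaps, and 42.1% of gaps were wider. An absent peak means that none passed the authors' threshold in this 1 library. The list holds only peaks that passed, so it cannot show weaker binding at Mafk.

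**Figure D2:**
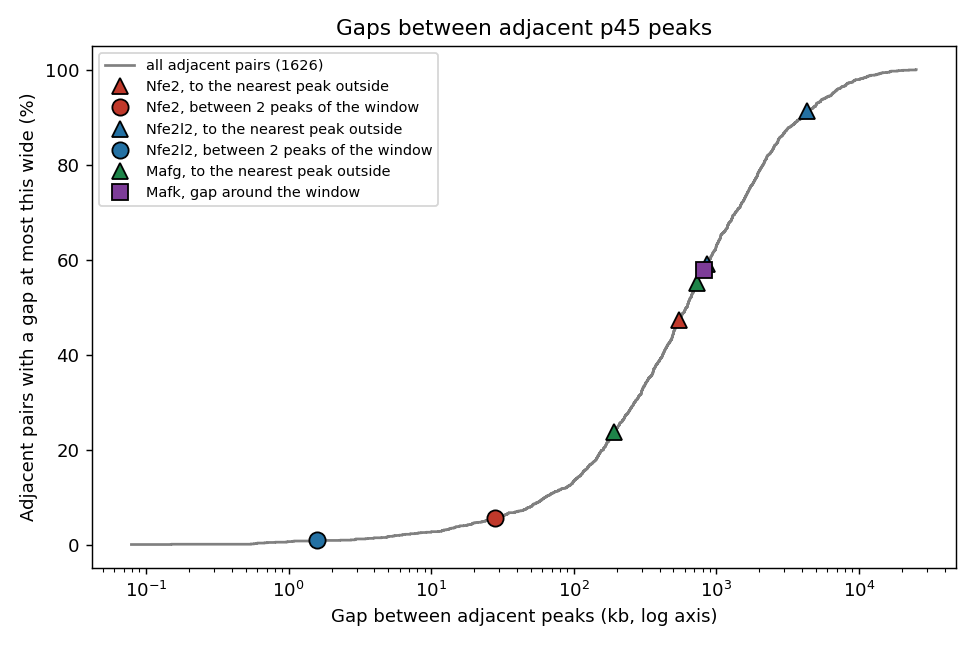
Share of adjacent peak pairs (%, vertical axis) whose gap is at most the width on the horizontal axis (kb, log axis), for all 1626 pairs (line) and for the gaps at the 4 windows (symbols). The gap of 1591 bp inside the Nfe2l2 window is at the far left, and the gap of 823 kb around the Mafk window is near the middle of the curve.

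Ordered by score, the leading peaks were those of Nfe2 (644.61), Nfe2l2 (263.36) and Mafg (81.64), and Mafk had none. By length the order was Nfe2l2 (1581 bp), Nfe2 (1506 bp) and Mafg (1232 bp). The 3 leading peaks were thus all of at least 1232 bp and within the 36 longest of the list. Lengths of 1000 bp or more were held by 143 peaks, or 8.66%, and by 3 of the 5 peaks here. A score of at least 500 was held by 15 peaks. Of these, 5 also had such a length, among them the leading peak of Nfe2. Neither limit was fixed in advance, and the genes were chosen with the scores known, so these counts only describe the list. With 1 library, the differences between the genes' peaks have no replicate check.

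**Figure D3:**
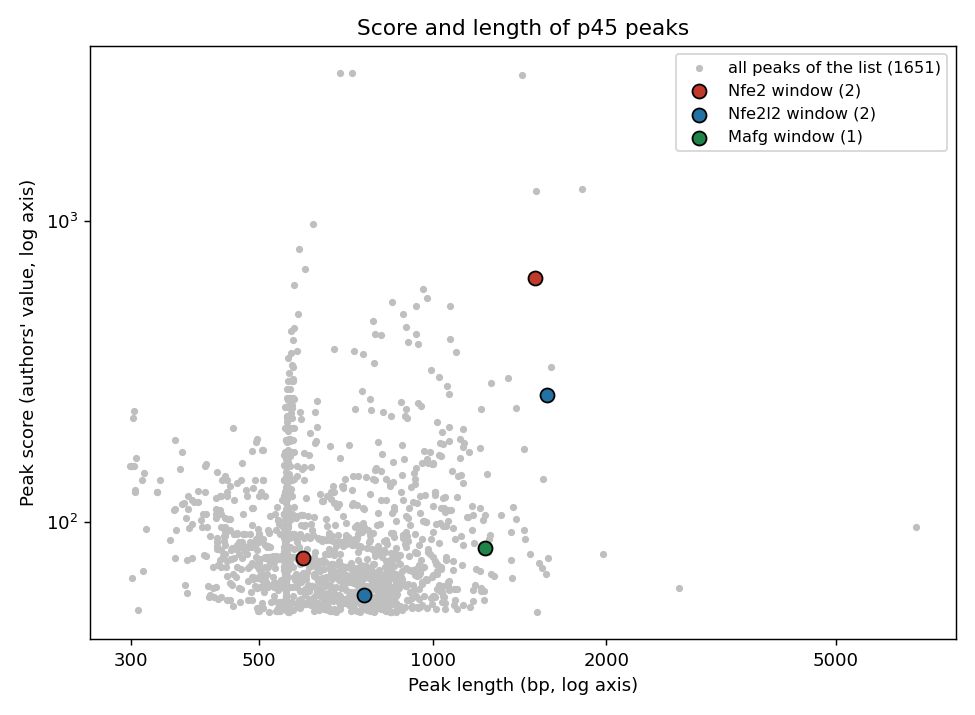
Length (bp, horizontal log axis) against the authors' score (vertical log axis) of all 1651 p45 peaks (grey), with the peaks of the Nfe2, Nfe2l2 and Mafg windows in colour. The leading peaks of Nfe2 and Nfe2l2 stand at the upper right, with 644.61 over 1506 bp and 263.36 over 1581 bp. The Mafg peak is long with a middling score, and both second peaks lie within the main cloud.

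A peak in a window need not belong to the gene the window is named for. Only the next protein-coding gene on each side is named below, and a peak could also belong to a gene further out. In the RefSeq gene order of GRCm38.p6, the protein-coding neighbours of Nfe2 are Hnrnpa1, for an RNA-binding protein of splicing, and Copz1, for a subunit of the coatomer coat. Those of Nfe2l2 are Hnrnpa3 and Agps, an enzyme of ether lipid synthesis. Mafg lies between Sirt7, a deacetylase gene, and Pycr1, an enzyme of proline synthesis. Mafk lies between Ints1, a subunit of the Integrator complex, and Tmem184a. Where the exons, introns and starts of these genes lie on mm9 was not analysed here, so the peaks are placed within their windows and not against a promoter.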

How the data were processed

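Per the labels' protocols, chromatin of cultured megakaryocytes was sonicated and precipitated with an anti-p45 antibody, and the library had fragments of about 250 bp. The authors deposited 1 list of peaks with a score per peak. Its peak names show that MACS called them, and build mm9 comes from the submitters' processing notes. How reads were aligned, how MACS was set and whether repeated reads were kept is not stated in the labels or headers, and depth is unknown.

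Starts were read as counting from 0 and are printed 1-based. A peak belonged to a window if at least 1 base overlapped, and tied scores shared the best rank. No test was run. The genes, windows and lists were chosen with earlier results of these data known. The peaks named are all those in the windows, the nearest outside on each side, and the peaks at least as high and as long as the leading peak of Nfe2 or Nfe2l2, the last chosen after their values were seen. 1 gene of the family list is not reported here. Peaks near other family genes were not analysed here, for want of mm9 gene positions. Window overlaps, ranks and gaps were tested on simulated data. Python 3.11.15, pandas 2.3.3, NumPy 2.4.6, SciPy 1.17.1 and matplotlib 3.10.9 were used.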

Additional observations from a re-analysis of the deposited data

How the results depend on the processing

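The number of peaks in the windows depended on the score that was asked for. It was 5 in the list as deposited, 3 with scores at or above the median (the leading peaks of Nfe2, Nfe2l2 and Mafg) and 2 with scores of at least 100 (those of Nfe2 and Nfe2l2), since fewer peaks enter. It stayed 5 when the whole peak had to lie inside, with windows widened by 50 kb on each side, and with starts read as 1-based. Ranks moved by at most 4 places when only chromosomes 1 to 19 and X were kept. Another rule for tied scores could not move them, since none of the 5 peaks shared its score. Ranking by length in place of score moved the second Nfe2 peak from 838 to 936, the Nfe2l2 peaks from 54 to 7 and from 1384 to 557, and the Mafg peak from 698 to 36, while the leading Nfe2 peak went from 9 to 14. No paired analysis was possible because each group holds 1 library and the result comes from no test. No replicate could be left out for the same reason. Depth behind the peaks is unknown, and the list holds only peaks past the authors' threshold.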
